A study of Sus scrofa with 6 samples.

Results

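This report describes 33 genes of mitochondrial fuel oxidation in pig back muscle, chosen by symbol. They comprise 5 genes of the pyruvate dehydrogenase complex, 13 of the tricarboxylic acid (TCA) cycle and 15 of fatty acid beta-oxidation. All but PDHX had a probe set with that 1 symbol on the array, so 32 genes on 37 probe sets were examined among 6765 named genes. Where a gene had several probe sets, the one with the highest mean log2 intensity over the arrays stood for it. The 2 groups were 3 boars of the Northeastern Indigenous breed and 3 of the Large White breed, which served as the control. All 6 animals were slaughtered at 150 days after the same feeding and housing. Each gave 1 GeneChip Porcine Genome Array from total RNA of longissimus dorsi, the loin muscle along the spine, and the labels call the samples biological replicates.

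Pyruvate dehydrogenase turns pyruvate from glycolysis into acetyl-CoA, and beta-oxidation cuts acetyl-CoA from fatty acids in repeated rounds. The TCA cycle then oxidises acetyl-CoA, and the reduced carriers that result feed the respiratory chain. In skeletal muscle these enzymes are most abundant in fibres rich in mitochondria. Adipocytes carry them too, so a piece of muscle that holds fat contributes their transcripts from both cell types. In bulk tissue, fewer cells of a type and less RNA per cell cannot be told apart.

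Large White replicates 1 and 3 stood apart from the other arrays in their cell type markers. Values are log2 intensities after quantile normalization. The adipocyte markers, 8 of 10 with a probe set, were set against the Northeastern Indigenous mean of each gene. Their list medians on Large White replicates 1, 2 and 3 were 4.86, 0.05 and 3.28 log2 units. Their summed linear intensity ran from 5477 to 65618 in Large White and from 5638 to 8554 in Northeastern Indigenous boars, and no marker was at 0. The sarcomere markers, 11 of 14 with a probe set, had medians of -3.27, -0.01 and -0.40 on Large White replicates 1, 2 and 3. Their summed intensity ran from 62327 to 260577 in Large White and from 255098 to 292401 in Northeastern Indigenous boars, so the muscle label was borne by sarcomere transcripts on every array and least on Large White replicate 1. Leukocyte markers, 7 of 11 with a probe set, had medians of 2.31, 0.92 and 2.23 on the same 3 arrays, and summed intensities of 6076 to 21586 in Large White against 1387 to 2923. Fibroblast and matrix markers, 6 of 7 with a probe set, had medians of 2.26, 0.35 and 1.75, and sums of 22656 to 81928 against 15199 to 22927. Slow fibre markers, 7 of 8, had medians of -5.07, -0.19 and -0.35. The value on replicate 2 was 0.090 on the deposited values and 0.058 with median centring. On replicate 3 it was -0.84 and -0.98 under these scalings, and the sarcomere median there was -0.90 and -1.04. Fast fibre markers, 5 of 9, had medians of -3.13, 0.02 and -0.17 on Large White replicates 1, 2 and 3. On replicates 2 and 3 these were 0.25 and -0.70 on the deposited values, and 0.22 and -0.83 with median centring. The part of these cell types in the enzyme differences was not tested. Because of them, the enzyme groups and many single genes are also given against Large White replicate 2 by itself.

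Most of the enzyme genes were brighter in Northeastern Indigenous boars, but none passed the adjusted threshold. The difference, Northeastern Indigenous minus Large White, was positive for 26 of the 32 genes, against 53.3% of all named genes. Its median was 0.56 log2 units over the 32 and 0.06 over all named genes. All 13 TCA cycle genes were on the positive side, with a median of 0.81, as were 3 of 4 pyruvate dehydrogenase genes, with a median of 0.79. Beta-oxidation was mixed, with 10 positive and 5 negative genes and a median of 0.45. The scaling moved some genes across 0: on the deposited values 28 of the 32 were positive, with PDHB and ACAA2 turned, and with arrays centred on their medians 29, with HADH turned as well.

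Limma called 0 of the 32 genes at an adjusted p under 0.05, and 0% of the 5438 named genes tested. All 32 were bright enough to be tested, with adjusted p from 0.224 to 0.936. At an unadjusted p under 0.05 there were 16 genes, all higher in Northeastern Indigenous boars, where 9.42% of tested genes were higher at that level and 11.4% lower. In 14 genes the lowest Northeastern Indigenous array lay above the highest Large White array, against 14.3% of all named genes. The breeds parted the other way in 1 gene, ECHS1, against 11.6% of all. The count of calls rested on Large White replicate 2: without that array, limma called 15 of the 32 genes and 34% of all genes tested. The Northeastern Indigenous arrays lay close together, with a median SD of 0.16 for these genes against 0.43 in Large White.

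**Figure D1:**
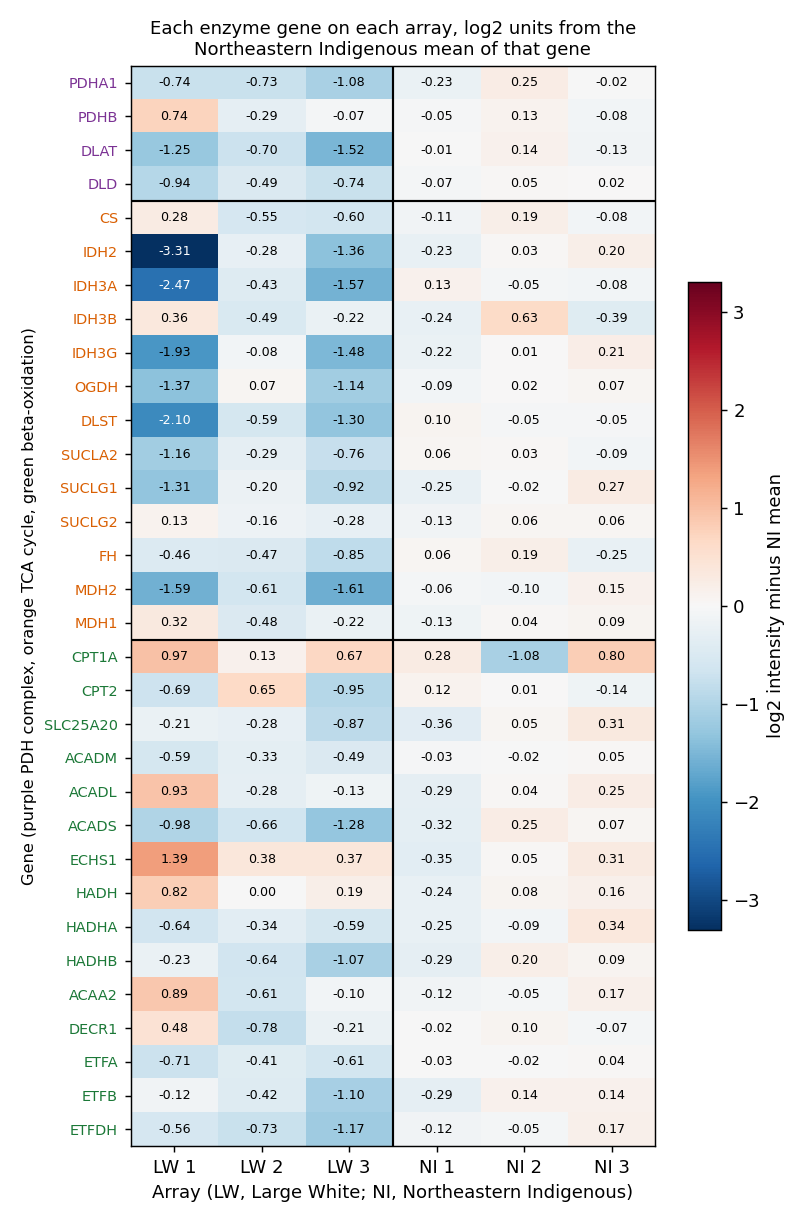
Log2 intensity of each of the 32 genes on each of the 6 arrays, minus that gene's Northeastern Indigenous mean (colour and printed value; LW, Large White; NI, Northeastern Indigenous). Most cells of the Large White columns are blue. On LW 1 a set of 10 genes lies above every NI array, among them ECHS1 at 1.39 and PDHB at 0.74.

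The pyruvate dehydrogenase complex joins several catalytic subunits in 1 particle. DLAT encodes its acetyltransferase core. It read 9.50, 10.05 and 9.23 on Large White replicates 1, 2 and 3, and 10.74, 10.89 and 10.63 on the Northeastern Indigenous arrays. Every Northeastern Indigenous array was above every Large White array, and the difference was 1.16 ± 0.29 log2 units (SE), a 2.23-fold ratio. PDHA1 encodes the alpha subunit of the decarboxylase that starts the reaction. It read 11.13, 11.15 and 10.80 in Large White and 11.65, 12.13 and 11.86 in Northeastern Indigenous boars, a difference of 0.85 ± 0.24 (SE) with no overlap.

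DLD encodes the dihydrolipoamide dehydrogenase that this complex shares with 2-oxoglutarate dehydrogenase. Its Large White values were 12.24, 12.69 and 12.44 and its Northeastern Indigenous values 13.11, 13.23 and 13.20. These did not overlap, and the difference was 0.72 ± 0.19 (SE). PDHB, the beta subunit that pairs with PDHA1, had another pattern. It read 13.88, 12.84 and 13.06 in Large White against 13.08, 13.26 and 13.05. Large White replicate 1 was the brightest array for PDHB and replicate 2 the dimmest, and the difference was -0.13 ± 0.28 (SE). Without Large White replicate 1 it was 0.18. Whether the 2 subunits of the same enzyme differed from each other was not tested.

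In the TCA cycle the largest differences over all arrays were in IDH2, IDH3A, DLST and MDH2, and against Large White replicate 2 by itself in MDH2 (0.61), DLST (0.59) and CS (0.55). IDH2, the NADP-dependent mitochondrial enzyme, read 10.35, 13.37 and 12.29 on Large White replicates 1, 2 and 3, and 13.42, 13.68 and 13.86 in Northeastern Indigenous boars. The difference was 1.65 ± 0.69 (SE). The breeds did not overlap, but Large White replicate 2 lay 0.048 below the dimmest Northeastern Indigenous array. Against that replicate by itself the difference was 0.28.

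IDH3A is the catalytic subunit of the NAD-dependent isocitrate dehydrogenase, a control point of the cycle. It read 9.32, 11.36 and 10.23 in Large White and 11.93, 11.74 and 11.72 in Northeastern Indigenous boars, a difference of 1.49 ± 0.49 (SE) with no overlap. A second IDH3A probe set gave 2.05. The partner subunit IDH3G differed by 1.17 ± 0.48 (SE) and IDH3B by 0.12 ± 0.38. Large White replicate 2 lay inside the Northeastern Indigenous range for IDH3G, and the difference against it alone was 0.083. For IDH3B the 9.79, 10.67 and 9.64 of the Northeastern Indigenous boars spanned more than the 10.39, 9.54 and 9.81 of the Large White boars. Leaving out Northeastern Indigenous replicate 2 turned the IDH3B difference to -0.20.

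The next steps oxidise 2-oxoglutarate and release succinate. DLST, the succinyltransferase of the 2-oxoglutarate dehydrogenase complex, read 9.50, 11.001 and 10.29 against 11.69, 11.55 and 11.54. The breeds were apart by 1.33 ± 0.39 (SE) with no overlap. OGDH, which starts that reaction, differed by 0.81 ± 0.41 (SE), from Large White values of 8.65, 10.09 and 8.87 and Northeastern Indigenous values of 9.93, 10.03 and 10.08. Large White replicate 2 was the brightest of the 6 arrays for OGDH, so the breeds overlapped and the difference against it alone was -0.07. The succinate-CoA ligase subunits SUCLG1 and SUCLA2 differed by 0.81 ± 0.31 and 0.74 ± 0.24 (SE). SUCLG1 overlapped between breeds and SUCLA2 did not, and against Large White replicate 2 they were at 0.20 and 0.29. SUCLG2, which gives the ligase its preference for GDP, had the smallest difference of the cycle, 0.10 ± 0.22 (SE). It read 11.67, 11.38 and 11.26 in Large White and 11.42, 11.61 and 11.60 in Northeastern Indigenous boars.

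The last steps run through fumarate to oxaloacetate. FH, the fumarase, read 12.04, 12.02 and 11.64 against 12.55, 12.68 and 12.24, a difference of 0.59 ± 0.23 (SE) with no overlap. MDH2, the mitochondrial malate dehydrogenase, read 11.59, 12.57 and 11.58 against 13.13, 13.09 and 13.34. All 3 Large White arrays were below all 3 of the other breed, by 1.27 ± 0.30 on average (SE), a 2.41-fold ratio. MDH1, its cytosolic counterpart in the malate-aspartate shuttle, read 14.22, 13.42 and 13.68 against 13.77, 13.94 and 13.99, with a difference of 0.13 ± 0.23 (SE). CS, the citrate synthase that opens the cycle and is often used as an index of mitochondrial content, differed by 0.29 ± 0.28 (SE). It read 13.31, 12.47 and 12.42 in Large White and 12.92, 13.22 and 12.94 in Northeastern Indigenous boars, so Large White replicate 1 was its brightest array. The CS difference was 0.58 without Large White replicate 1, 0.14 without replicate 3, 0.54 on the deposited values and 0.68 with median centring. A second CS probe set gave 0.39.

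**Figure D2:**
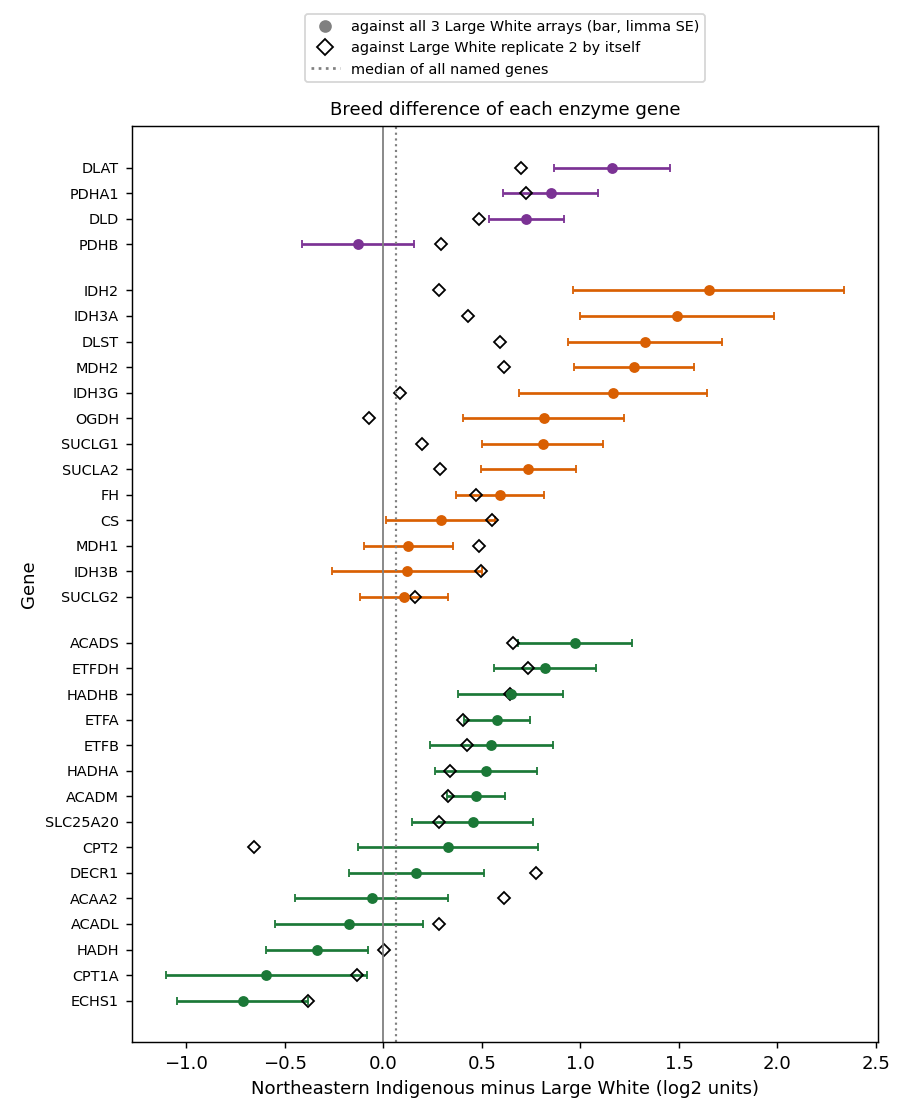
Difference between breeds in log2 units for each gene, ordered within pyruvate dehydrogenase (purple), TCA cycle (orange) and beta-oxidation (green). Filled points with SE bars use all 3 Large White arrays, open diamonds use Large White replicate 2 by itself, and the dotted line is the median of all named genes, 0.06. IDH2 moves from 1.65 to 0.28 between the filled point and the diamond, while DECR1 moves from 0.17 to 0.78.

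Fatty acids enter the mitochondrion as carnitine esters. CPT1A, the carnitine palmitoyltransferase form best known from liver, read 9.22, 8.38 and 8.92 in Large White and 8.52, 7.16 and 9.05 in Northeastern Indigenous boars. Northeastern Indigenous replicate 2 was the dimmest array, and the difference of -0.59 ± 0.51 (SE) was -0.053 without it. CPT2, which returns the acyl group to coenzyme A inside, read 6.18, 7.53 and 5.92 against 6.998, 6.88 and 6.74. Its probe set was dim, near the deposited array medians of 6.56 to 6.91. The breeds overlapped, with a difference of 0.33 ± 0.46 (SE), and against Large White replicate 2 by itself it was -0.65. SLC25A20, the carrier that swaps acylcarnitine for carnitine, differed by 0.45 ± 0.31 (SE) with overlap.

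The acyl-CoA dehydrogenases take the first electrons from the chain, each at its own chain length. ACADS, for short chains, read 9.43, 9.76 and 9.14 against 10.10, 10.66 and 10.49, a difference of 0.97 ± 0.29 (SE) with no overlap. ACADM, for medium chains, read 13.34, 13.60 and 13.44 against 13.90, 13.91 and 13.98. The breeds were again apart, by 0.47 ± 0.15 (SE), with an SD of 0.042 over the Northeastern Indigenous arrays. ACADL, for long chains, read 11.83, 10.61 and 10.76 against 10.60, 10.94 and 11.14. Only Large White replicate 1 lay above the Northeastern Indigenous range for ACADL, and the difference of -0.17 ± 0.38 (SE) became 0.21 without it.

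These dehydrogenases pass their electrons to the electron transfer flavoprotein and on to its ubiquinone oxidoreductase. ETFA, the alpha subunit, read 12.69, 13.00 and 12.79 against 13.38, 13.39 and 13.45, a difference of 0.58 ± 0.17 (SE). Its Northeastern Indigenous values spanned 0.069, the narrowest range among the 32 genes, and lay above every Large White array. ETFDH, the oxidoreductase, read 10.91, 10.73 and 10.29 against 11.34, 11.41 and 11.64, with no overlap and a difference of 0.82 ± 0.26 (SE). A second ETFDH probe set gave 0.75. ETFB, the beta subunit, differed by 0.55 ± 0.31 (SE), and Large White replicate 1 fell inside the Northeastern Indigenous range.

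The later steps of the spiral divided by enzyme. HADHA and HADHB form the trifunctional protein, which carries long chains through hydration, oxidation and thiolysis at the inner membrane. HADHA read 10.47, 10.78 and 10.53 against 10.87, 11.03 and 11.46, a difference of 0.52 ± 0.26 (SE) with no overlap. HADHB read 13.00, 12.59 and 12.16 against 12.94, 13.43 and 13.32, a difference of 0.65 ± 0.26 (SE), and its other probe sets gave 0.73 and 0.56. Large White replicate 1 overlapped the Northeastern Indigenous arrays for HADHB.

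ECHS1, HADH and ACAA2 encode the separate matrix enzymes for the same reactions on shorter chains. ECHS1, the hydratase, read 13.81, 12.81 and 12.80 in Large White and 12.07, 12.47 and 12.73 in Northeastern Indigenous boars. It was the single gene of the 32 whose Large White arrays all lay above the others, by 0.065 at the nearest pair, and its difference was -0.71 ± 0.33 (SE). Without Large White replicate 1 it was -0.38, and it was -0.46 on the deposited values and -0.32 with median centring. HADH, the hydroxyacyl-CoA dehydrogenase, read 13.66, 12.84 and 13.03 against 12.60, 12.92 and 13.00. Its difference was -0.33 ± 0.26 (SE), and -0.094 without Large White replicate 1. ACAA2, the thiolase, read 12.44, 10.94 and 11.45 against 11.43, 11.50 and 11.73, a difference of -0.059 ± 0.39 (SE) that became 0.36 without Large White replicate 1. DECR1 reduces intermediates of unsaturated fatty acids. It read 11.72, 10.46 and 11.03 against 11.21, 11.33 and 11.16, with Large White arrays on both sides of the Northeastern Indigenous ones and a difference of 0.17 ± 0.34 (SE).

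**Figure D3:**
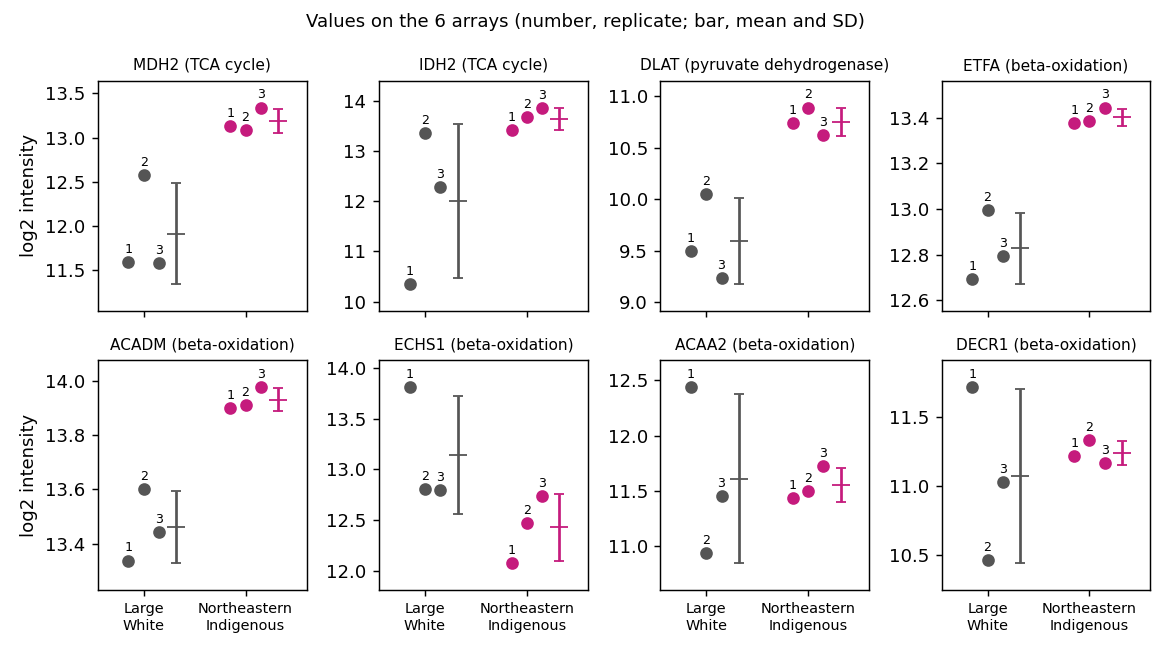
Log2 intensity of 8 genes on each array (points numbered by replicate) with the mean and SD of each breed (n = 3), each panel on its own axis, which does not start at 0. MDH2, IDH2, DLAT, ETFA and ACADM do not overlap between breeds, while for ACAA2 and DECR1 Large White replicates 1 and 2 lie on opposite sides of the Northeastern Indigenous arrays. ECHS1 is higher on all 3 Large White arrays.

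The 3 Large White arrays differed in which enzymes they set apart. On replicate 1, where adipocyte markers were brightest and sarcomere markers dimmest, 18 of the 32 genes lay below all 3 Northeastern Indigenous arrays and 10 lay above them all. The 10 were PDHB, CS, SUCLG2, MDH1, CPT1A, ACADL, ECHS1, HADH, ACAA2 and DECR1. Over all named genes 40.4% lay below on that array and 37.4% above. The isocitrate dehydrogenases had a median of -2.20 there and the later steps of beta-oxidation a median of 0.65. On replicate 3, 25 genes lay below, against 40.7% of all named genes, and ECHS1 and HADH lay above, against 31.3%. The TCA cycle median on that array was -0.92, with -0.40 for sarcomere markers and -0.55 for the mitochondrial reference list (carriers, import pores and chaperones). In the same order these medians were -1.10, -0.90 and -0.77 on the deposited values. With median centring they were -1.24, -1.04 and -0.90, so the gap to the sarcomere markers depended on the scaling.

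Large White replicate 2 lay close to the Northeastern Indigenous arrays in adipocyte and sarcomere markers and below them in most of these enzymes. On it, 23 of the 32 genes lay below all 3 Northeastern Indigenous arrays, against 29.7% of all named genes, and 28 lay below their mean. OGDH, CPT2 and ECHS1 lay above the 3 arrays, against 29.5% of all named genes. This was not particular to the 32: 8 of 11 mitochondrial reference genes and 4 of 5 other TCA cycle enzymes also lay below all 3. The medians on that array were -0.59 for pyruvate dehydrogenase, -0.43 for the TCA cycle and -0.34 for beta-oxidation. The sarcomere and adipocyte lists stood at -0.01 and 0.05 and all named genes at 0.02, with the leukocyte list at 0.92. With the deposited values, 24 of the 32 lay below all 3 arrays, and with median centring 27, with 28 below the mean under both. The largest differences against replicate 2 were in DECR1 (0.78), ETFDH (0.73), PDHA1 (0.73) and DLAT (0.70). A single array has no spread of its own: fitted against the 3 Northeastern Indigenous arrays, limma called 0 of the 32 genes, with 13 higher at an unadjusted p under 0.05, against 6.6% of tested genes. Only 1 Large White animal stands behind these values.

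**Figure D4:**
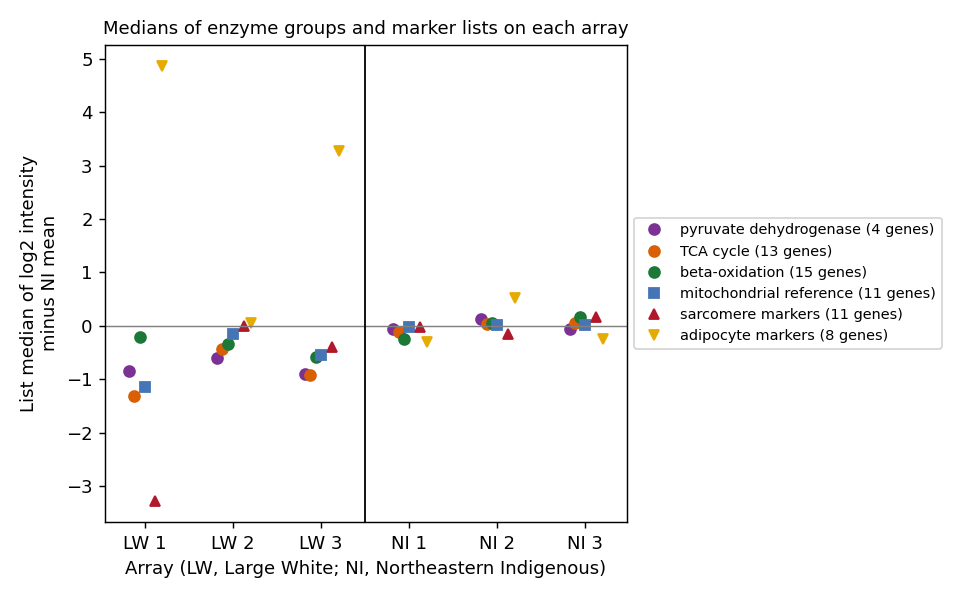
Median log2 intensity relative to the Northeastern Indigenous mean for the 3 enzyme groups and for mitochondrial reference, sarcomere and adipocyte genes on each array (LW, Large White; NI, Northeastern Indigenous). On LW 2 the adipocyte and sarcomere lists lie near 0 (0.05 and -0.01), while pyruvate dehydrogenase, TCA cycle and beta-oxidation lie at -0.59, -0.43 and -0.34.

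Neighbouring steps were read through gene lists outside the 32. Succinate dehydrogenase completes the cycle and is also complex II of the respiratory chain. Its 4 subunit genes all had positive differences, from 0.21 for SDHD to 0.97 for SDHA. Of them 3 did not overlap between breeds, where 14.3% of all named genes parted this way. Against Large White replicate 2 the 4 differences ran from 0.15 for SDHB to 0.75 for SDHA. OGDHL, a relative of OGDH, was too dim to be tested. Of the 6 measured genes for pyruvate entry and its control, 1 was positive and 5 negative, with a median of -0.26. Against Large White replicate 2 by itself 4 of the 6 were positive, and the median was 0.18. PDK4, the kinase that switches pyruvate dehydrogenase off, varied widely among Northeastern Indigenous boars, at 9.39, 7.86 and 12.47, and differed by 1.43 ± 1.15 (SE), or by 2.69 against Large White replicate 2. PC, the pyruvate carboxylase that refills oxaloacetate and serves fat synthesis in adipocytes, read 12.48, 9.25 and 11.11 in Large White and 8.87, 9.004 and 8.79 in Northeastern Indigenous boars. Its order over the Large White arrays was that of the adipocyte markers, and its difference was -2.06 ± 0.74 (SE), or -0.36 against replicate 2. The part of adipocytes in the PC values was not tested.

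Of 18 other fatty acid oxidation genes, 12 were positive and 6 negative, against 53.3% positive over all named genes. Among the 17 tested, 3 were higher and 3 lower at an unadjusted p under 0.05, against 9.42% and 11.4% of all genes tested. CPT1B, the muscle form of the transferase, had the largest positive value, 2.49, followed by ACADVL, for very long chains, at 1.70. Against Large White replicate 2 they were at 1.23 and 1.14. CPT1B read 5.29, 7.875 and 6.67 in Large White and 8.90, 9.01 and 9.39 in Northeastern Indigenous boars. It was dim on Large White replicates 1 and 3, where the deposited array medians were 6.56 to 6.91 over all arrays. SLC22A5, which takes carnitine into the cell, was the most opposite, at -1.19 ± 0.29 (SE), with every Northeastern Indigenous array below every Large White array, and at -1.42 against replicate 2. Ketone and branched-chain amino acid oxidation, 10 genes, had 5 positive and 5 negative values and a median of 0.025. IVD, of leucine breakdown, was at -0.95, OXCT1, which activates ketone bodies, at -0.83 and BCKDHA, of the branched-chain complex, at 0.47. Against Large White replicate 2 by itself they were at -0.14, 0.15 and 0.60. The breeds overlapped for OXCT1 and BCKDHA.

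The malate-aspartate shuttle carries cytosolic reducing power into mitochondria. Its aspartate carrier SLC25A12 read 8.90, 11.55 and 10.67 against 12.42, 12.36 and 12.40, a difference of 2.02 ± 0.62 (SE). GOT1, the cytosolic transaminase, read 9.77, 11.19 and 10.51 against 12.13, 12.45 and 12.64, a difference of 1.92 ± 0.38 (SE). The breeds did not overlap for either gene, nor for SLC25A11 and GOT2, which were picked for mention after their values were seen. Among all named genes 14.3% parted this way. Of the list's 10 measured genes, which also covers malic enzymes and cytosolic isoforms, 6 were positive and 4 negative, with a median of 0.50. Against Large White replicate 2 SLC25A12 was at 0.84 and GOT1 at 1.22. The malic enzymes ME1 and ME2 and the cytosolic aconitase ACO1, also picked after seeing values, were at -1.39, -0.40 and -0.40. The breeds overlapped for each of them, and against Large White replicate 2 they were at 0.16, 0.21 and 0.018. The other malic enzyme of the list, ME3, was at 0.11. The cytosolic isocitrate dehydrogenase IDH1, from the same list, went the other way from the mitochondrial IDH2. It read 13.13, 8.89 and 11.26 against 8.80, 9.51 and 8.96, so Large White replicate 2 lay inside the Northeastern Indigenous range, and the difference was -2.0 ± 0.96 (SE). Like PC, it was bright on the 2 arrays where adipocyte markers were bright, and the part of adipocytes in this was not tested.

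Mitochondrial reference genes were positive in 10 of 11 cases, with a median of 0.70. CYCS, cytochrome c, was at 1.41, the import receptor TOMM70 at 0.92 and the chaperone HSPD1 at -0.51. Against Large White replicate 2 by itself their median was 0.16, and that of the 32 enzyme genes was 0.41. Of 8 listed regulators 3 were measured, all with positive differences. Their median of 1.13 was the value of PPARA, which was too dim to be tested. PPARD was at 0.31 ± 0.45 (SE) with overlap, and at -0.52 against Large White replicate 2. PPARGC1A, a coactivator that raises mitochondrial gene expression, read 4.03, 8.80 and 7.09 in Large White and 9.28, 8.94 and 9.84 in Northeastern Indigenous boars. The breeds did not overlap, the difference was 2.71 ± 1.09 (SE), and against replicate 2 it was 0.55. The 4.03 on Large White replicate 1 was dim, below every deposited array median (6.56 to 6.91). In limma, none of the genes in these neighbouring lists passed the adjusted threshold.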

How the data were processed

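The values the authors deposited are linear intensities, 1 for each probe set on each array. The software that made them is not given in the sources used here. The mean without the lowest and highest 2% of values was 499.8 to 499.9 on every array, which shows a shared scale. Arrays give brightness, not depth, so their number limits the precision. Of 24123 rows, 124 controls were left out. Platform annotation gave 1 symbol to 10069 probe sets, several to 198 (not used) and none to 13732. No genome build is named, and no coordinates or sequences were used here; the planned promoter motif search was not run.

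Intensities were taken as log2 and quantile normalized, since array medians spanned 0.35, over a limit of 0.2. The 14399 probe sets whose mean log2 reached the 40th percentile entered 1 limma model (version 3.58.1, R 4.3.3; lmFit, then eBayes with trend) with breed as its only term, tested two-sided with Benjamini-Hochberg adjustment over all of them. The fit was tested on simulated data. P-values set each difference against the spread among these 6 animals. That spread was pooled over both breeds and moderated by limma across all probe sets tested. Genes and lists were chosen with earlier results of these data known. Every member is named; neighbouring lists are given by counts with the 2 largest differences and the most opposite, plus SDHA, CPT1B, PDK4 and PPARGC1A, and further genes where the text says so or gives a whole enzyme. Alternatives were other scalings, filters, an offset, variance priors, a block by replicate number, averaging a gene's probe sets and leaving arrays out.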

Additional observations from a re-analysis of the deposited data

How the results depend on the processing

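Calls among the 32 genes stayed at 0 under every scaling, filter, offset, prior and threshold run; leaving out 1 array gave 0 to 15, the 15 without Large White replicate 2. Replicate numbers are not known to pair animals (same-numbered deviations correlated at -0.024, -0.16 and -0.11). With them as a block the count was 0. There 12 genes were higher at an unadjusted limma p under 0.05 in place of 16, against 7.21% of all genes tested in place of 9.42%. Medians over all 32 genes were 0.69 with the deposited log2 values, 0.82 with median centring and 0.41 with Large White replicates 1 and 3 left out (0.43 on deposited values, 0.46 centred). For pyruvate dehydrogenase they were 0.89, 1.03 and 0.59 (0.61 and 0.65). For the TCA cycle they were 0.95, 1.09 and 0.43 (0.44 and 0.47), with 0.58 to 1.12 on leaving out 1 array. For beta-oxidation leaving out 1 array gave 0.25 to 0.54, the 0.25 without Large White replicate 3. All named genes had medians of 0.011, 0.15 and -0.019 (-0.034 and -0.0020), 0.050 with the offset and 0.028 to 0.083 without 1 array. Genes not overlapping came to 22 with centring (14.7% of all named genes) and to 23, 24 and 27 with replicates 1 and 3 left out (29.7%, 28.8% and 29.7% of all), where fewer arrays make parting easier. The cause of the other shifts was not tested.

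Signs turned for genes near 0. PDHB was 0.20 on deposited values, 0.34 centred and 0.29 with replicates 1 and 3 left out (0.32 and 0.36), and -0.34 to 0.18 without 1 array. ACAA2 was 0.039, 0.18 and 0.61 (0.65 and 0.69), and -0.40 to 0.36. HADH was 0.10 centred and 0.0016 with both left out (0.017 and 0.049). With both left out ACADL was 0.28 (0.32 and 0.36), OGDH -0.070 (-0.068 and -0.036) and CPT2 -0.65 (-0.64 and -0.61). Leaving out 1 array gave -0.40 to 0.21 for ACADL, -0.20 to 0.36 for IDH3B, -0.053 to 0.35 for MDH1 and -0.14 to 0.49 for DECR1. Combining a scaling with the removal of both arrays was added after seeing the data.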
